A study of Mus musculus with 2 samples.

Results

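H3K27ac in mouse cells without Dicer (Dicer KO, knockout) was compared with that in Dicer WT (wild-type) cells, taking every event of the 2 H3K27ac lists that lies on a placed chromosome. These are 10079 of the 21418 events deposited for 3 histone marks. Of them 8314 had more reads in KO and 1765 more in WT, a KO share of 82.5% (95% interval 81.7 to 83.2). The interval covers counting error alone and treats events as independent, which close events are not. With events merged within 5 kb the share was 80.5%. The cells were mesenchymal stromal cells (MSCs), named fibroblasts in the sample titles, grown in alpha-MEM with serum as immortalized lines that each descend from a single clone. The 2 groups were Dicer KO and Dicer WT, with 1 labelled sample each, and no treatment differed between them. The design text of the series speaks of 2 replicates per genotype; they were pooled in the lists, which give 1 value per genotype, so no replicate error can be had, and genotype cannot be told apart from clone. Lists of events give no expression, so the cell type named in the labels could not be checked against its markers.

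Dicer is the ribonuclease that cuts microRNA precursors into mature microRNAs, which repress messenger RNAs; the let-7 family restrains fetal growth genes such as Hmga2 and the Igf2bp genes. Acetylation of lysine 27 on histone H3 is laid down by the acetyltransferases p300 and CBP, marks active enhancers and promoters, and is removed by deacetylases. In stromal cells many active enhancers lie far from gene starts and occur in groups. An event here is a point position placed by the authors' peak finder with the reads assigned to it, and its ratio is the reads of the higher genotype over the other genotype's reads after the authors scaled them to the higher library.

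Promoters at 4 loci with H3K27ac events are shown for orientation, because the Igf2bp2 and Igf2bp3 loci held some of the largest ratios in KO, while Acta2 (smooth muscle actin) and Emx2 (a homeobox factor) had events higher in WT. The sequences are from RefSeq in build GRCm38.p6, from 250 bases before to 50 after the annotated start, read in the direction of the gene; their coordinates cannot be set against the mm9 positions of the events. They cover chr16:22163250-22163549 (minus strand), chr6:49214905-49215204 (minus), chr19:59458440-59458739 (plus) and chr19:34255324-34255623 (minus). Of 27 loci below that are single genes, 17 had an entry in this promoter table under the symbol used here. Capitals mark CG dinucleotides, which are dense in CpG-island promoters.
Igf2bp2: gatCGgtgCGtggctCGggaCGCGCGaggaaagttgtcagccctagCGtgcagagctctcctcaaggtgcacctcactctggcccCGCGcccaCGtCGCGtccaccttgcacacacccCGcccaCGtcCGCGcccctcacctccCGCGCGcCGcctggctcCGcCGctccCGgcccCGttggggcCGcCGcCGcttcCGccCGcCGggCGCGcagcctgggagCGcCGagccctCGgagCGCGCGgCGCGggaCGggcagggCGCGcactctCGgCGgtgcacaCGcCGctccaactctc
Igf2bp3: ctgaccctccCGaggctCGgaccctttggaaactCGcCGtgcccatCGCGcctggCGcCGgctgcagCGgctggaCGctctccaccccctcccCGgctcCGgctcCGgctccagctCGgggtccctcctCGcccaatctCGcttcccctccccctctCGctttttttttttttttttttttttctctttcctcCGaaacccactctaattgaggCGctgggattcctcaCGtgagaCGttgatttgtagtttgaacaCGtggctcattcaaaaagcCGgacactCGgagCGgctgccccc
Emx2: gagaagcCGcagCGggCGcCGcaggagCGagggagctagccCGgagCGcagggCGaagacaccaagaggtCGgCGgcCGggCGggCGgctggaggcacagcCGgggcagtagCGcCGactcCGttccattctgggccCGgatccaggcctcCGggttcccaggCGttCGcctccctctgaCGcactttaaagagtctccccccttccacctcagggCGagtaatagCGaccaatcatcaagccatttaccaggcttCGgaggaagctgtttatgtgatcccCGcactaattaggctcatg
Acta2: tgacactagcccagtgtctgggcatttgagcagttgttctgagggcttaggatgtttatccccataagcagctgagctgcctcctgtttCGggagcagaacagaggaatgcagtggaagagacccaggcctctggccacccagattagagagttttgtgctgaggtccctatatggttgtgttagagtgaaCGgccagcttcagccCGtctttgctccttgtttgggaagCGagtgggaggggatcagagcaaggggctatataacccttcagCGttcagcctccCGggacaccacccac
Igf2bp2 held 47 CG dinucleotides in 300 bases, Emx2 26, Igf2bp3 25 and Acta2 6. Over the 32851 promoters of the table the median was 7 (quartiles 3 and 20), so 98.6%, 83.1%, 81.6% and 43.6% of promoters held fewer than these 4, in that order. The counts describe the sequences and not the marks.

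The lower genotype also had reads at every listed event, and fewer at those of the WT list. The median KO-higher event had 373 reads in KO (quartiles 296 and 502) and 155 unscaled reads in WT (114 and 214). The median WT-higher event had 304 reads in WT (253 and 387) and 72.0 in KO (46.0 and 105). No event of either list had 0 reads in the lower genotype. Fewer than 30 reads there were seen at 14 of 8314 KO-higher events (0.168%) and at 158 of 1765 WT-higher events (8.95%). A ratio of 4 or more was reached by 18.6% of the KO list and 47.8% of the WT list. No input or background level stands in the lists, so these reads do not show whether acetylation was present there.

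The lower genotype stood at different levels in the lists. The authors' files give an expected signal, 1 value per chromosome in each list, and each genotype's unscaled reads were compared with its own value. The files do not define this value; it was read as that of the list's higher genotype because the deposited Poisson significance of that genotype's reads follows it. At KO-higher events the median WT level was 0.934 times the WT expected signal (quartiles 0.683 and 1.30), and 3676 events (44.2%, 43.1 to 45.3) lay above it. At WT-higher events the median KO level was 0.379 times the KO expected signal (0.237 and 0.563), and 72 events (4.08%, 3.21 to 5.11) lay above it. The higher genotype was at 1.91 times its expected signal in the KO list and 1.71 times in the WT list. At the scale of the lists the ratio had a median of 2.87 for KO-higher and 3.86 for WT-higher events, and in units of expected signal of 2.10 and 4.69. On the latter scale, 112 KO-higher events and 0 WT-higher events fell below 1, that is, were lower in the genotype that the list calls higher, and 28 of the 112 lay on chromosome 12. A ratio of 4 or more was then reached by 6.52% of the KO list and 59.7% of the WT list. The shares above expected signal are limited to events that the authors listed.

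**Figure D1:**
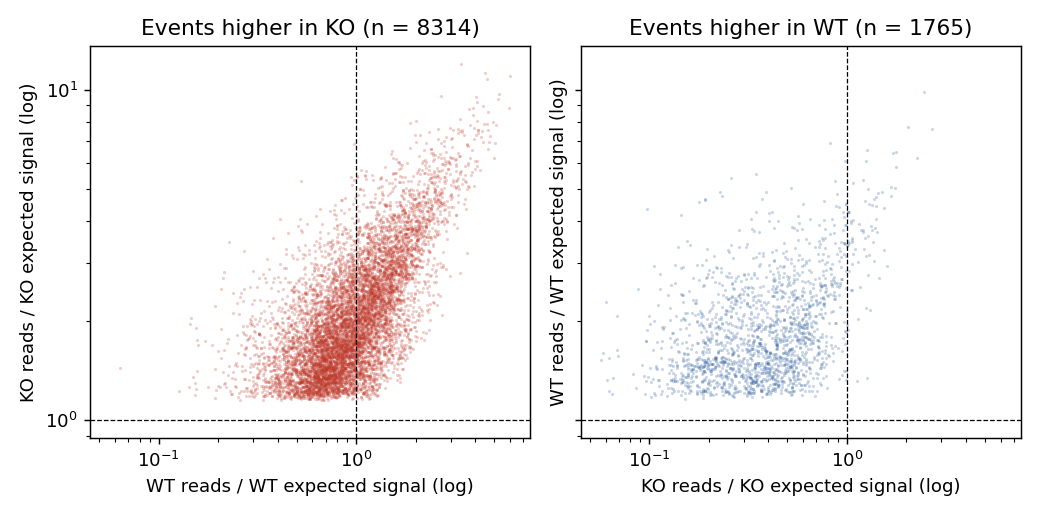
Reads of the lower genotype (x axis) against reads of the higher genotype (y axis), each divided by that genotype's expected signal on the chromosome, on log axes, 1 point per event; dashed lines mark 1. Points of the KO list spread to both sides of the vertical line (44.2% to its right), and those of the WT list lie mostly to its left (4.08% to its right).

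Sites with many reads in both genotypes were also listed. On chromosome 3, the KO-higher events at 121277585 and 107647838 had 1995 and 1930 reads in KO and still 976 and 964 unscaled reads in WT, with ratios of 2.41 (2.23 to 2.60) and 2.36 (2.18 to 2.55). The event with the most reads in WT, at 24302472 on chromosome 2, had 1855 WT reads and 533 KO reads, with a ratio of 3.18 (2.89 to 3.51). At the other end, the KO-higher events at 8091429 and 8092884 on chromosome 17 had 491 and 476 reads in KO against 29.5 and 31.7 in WT, ratios of 19.6 (13.3 to 28.9) and 17.7 (12.2 to 25.9). The WT-higher event at 143749027 on chromosome 7 had 529 reads against 22.5, a ratio of 21.5 (14.3 to 35.3). These events were picked for many reads or for a large ratio, so they do not show how the 2 go together over all events. The events with the largest −log10 q held both kinds: in KO the first was a site of 3362 reads on chromosome 15, with a ratio of 4.91 (4.55 to 5.32), and the eighth, at 9552456 on chromosome 1, had 955 reads with a ratio of 14.6 (11.6 to 18.7). In WT, 4 of the first 6 lay together between 24166214 and 24177414 on chromosome 2, with 897 to 1047 reads and ratios of 12.8 to 17.2.

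The reads needed for listing differed between chromosomes. The deposited q followed the smaller of 2 deposited significance values (Spearman's rho of 1 between them, across the 8314 and 1765 events). The first differed by a median of 0.00376 (KO) and 0.00348 (WT) on the −log10 scale from a binomial tail of the reads of both genotypes at even odds. The other differed by 0.184 and 0.0939 from a Poisson tail of the higher genotype's reads around the expected signal, over events whose values stayed under the limit of 200. The Poisson value was the smaller for 47.2% of KO-higher and 70.2% of WT-higher events. The fewest reads of a listed event therefore moved with the chromosome's expected signal. In the KO list they ran from 107 on chromosome X, where the expected signal was 76.2, to 341 on chromosome 19, where it was 296. In the WT list the range was 110 on X to 340 on 19. The minimum stood at 1.15 to 1.41 times the expected signal in KO and 1.16 to 1.44 times in WT.

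**Figure D2:**
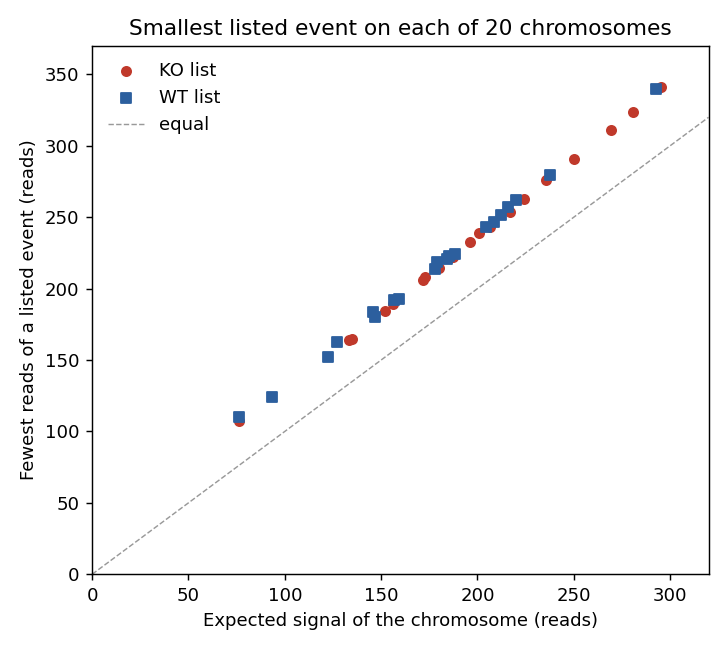
Fewest reads of any listed event (y axis, reads in the higher genotype) against the expected signal (x axis, reads) for 20 chromosomes in each list; the dashed line marks equality. Both lists follow the same course above the line, from 107 and 110 reads on X to 341 and 340 on chromosome 19.

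An event of 200 reads could thus be listed on chromosome 12, where the KO minimum was 165, and not on chromosome 19. With the highest minimum, 341 reads, asked of every chromosome, 4991 KO-higher and 638 WT-higher events were left (60.03% and 36.1% of the lists), and the KO share was 88.7%. The share rose on 19 of 20 chromosomes, and it was above 50% on 19 of 20 both with and without the common minimum. Chromosome 9, the exception to both, went from 44.4% to 44.3%; there the KO expected signal was 0.717 times that of WT. Chromosome 14 moved from 72.4% to 85.1% and X from 60.96% to 74.1%, the latter on 27 events. The densest KO list per length was that of chromosome 12, with 58.6 events per 10 Mb between its first and last event. The densest WT list was that of chromosome 9, with 13.7. The medians over chromosomes were 35.0 in KO and 7.69 in WT. On chromosome 12 the KO expected signal was 1.44 times that of WT, the highest value of the 20 chromosomes. The common minimum was set on each genotype's own unscaled reads, so it was not equally strict for both lists. On chromosome 12, 341 reads stood further above the WT expected signal (93.6) than above that of KO (135). On chromosome 9 it was the reverse (212 in WT, 152 in KO).

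Events of both lists lay in groups. The median distance from an event to the next of its list was 10376 bp in KO (quartiles 3207 and 91420) and 25947 bp in WT (4532 and 815553), while the mean gaps were 302753 and 1338585 bp. Gaps of at most 2 kb numbered 1383 of 8294 in KO and 192 of 1745 in WT, and gaps over 1 Mb 616 (7.43%) and 411 (23.6%). In the KO list 629 gaps lay between 1 and 1.5 kb, 271 between 2 and 2.5 kb and 309 between 3 and 3.5 kb. The WT list had 92 between 1 and 1.5 kb, 35 between 3 and 3.5 kb and 67 between 3.5 and 4 kb. By 7 to 7.5 kb they were down to 97 in KO and 20 in WT. Below 0.5 kb there were 1 and 2 gaps.

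**Figure D3:**
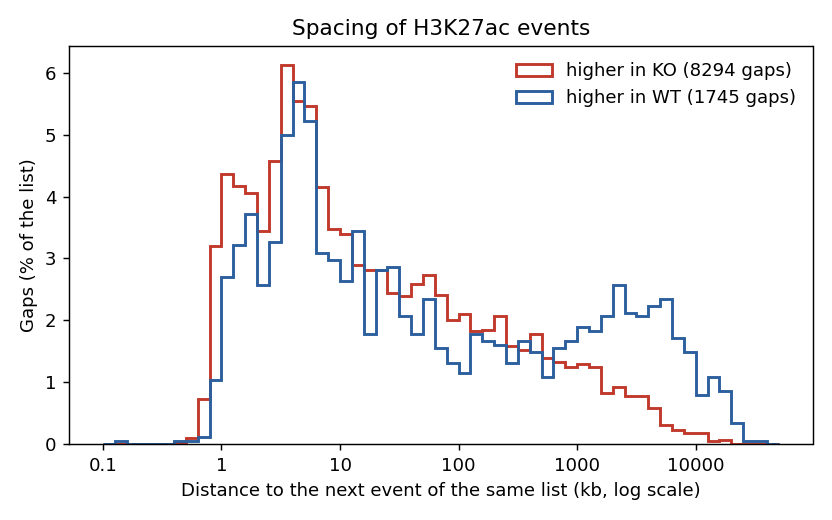
Distance from each event to the next of the same list (x axis, kb, log scale) as a share of all gaps of the list (y axis, %). On this scale, whose bins widen with distance, both lists are fullest between 3 and 6 kb, and the WT list has more of its gaps above 1000 kb (23.6%, against 7.43% in KO).

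Read sharing by the software changed over the same range. Read numbers are deposited to 1 decimal, and values with no fraction at all, as undivided reads would give, were found at 11.6% of KO-higher events whose nearest neighbour in the list was 1 to 1.5 kb away, at 35.6% for 2 to 2.5 kb and at 62.0% for 3.5 to 4 kb. At WT-higher events the shares were 15.4%, 39.7% and 65.7%. Where the nearest neighbour was more than 50 kb away they were 72.6% in KO and 81.7% in WT, so fractions also occur without a close listed neighbour. Most reads of events closer than about 2 kb are thus not whole numbers, and single values there are less certain than a cluster's sum. Whether this sharing sets the spacing was not tested.

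Joined at gaps of up to 5 kb, KO-higher events formed 5305 regions, of which 1914 held more than 1 event, and WT-higher events formed 1284, of which 329 did. In such clusters lay 59.2% of KO-higher events (58.1 to 60.3) and 45.9% of WT-higher events (43.5 to 48.3). The 1765 KO-higher events with the largest −log10 q, as many as the WT list holds, had 44.3% in clusters and a median gap of 52232 bp; this choice changes the strength of the events as well as their number. Events in larger clusters had more reads: the KO median was 337 for single events and 463 in clusters of 5 or more, and the WT median 285 and 373. The share with a ratio of 4 or more was 15.04% for single KO-higher events and 28.4% in KO clusters of 5 or more, and 44.4% and 64.8% in WT. Within clusters of 5 or more, the largest ratio was a median of 2.06 times the smallest in KO (93 clusters) and 2.57 times in WT (19 clusters). Events of a cluster can share reads and are not replicates.

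The clusters with most events differed in how even they were. The largest, 16 KO-higher events on chromosome 15, is described with Cntn1 below. The next held 9 events from 41221537 to 41240900 on chromosome 12, summed to a ratio of 3.75 (3.53 to 3.99), which was 2.21 in units of expected signal. A further 3 KO-higher clusters held 8 events each. That from 99933566 to 99953743 on chromosome 6 had 6975 KO reads and 2386 scaled WT reads (ratio 2.92, 2.80 to 3.06), and the cluster from 194632218 to 194649826 on chromosome 1 reached 4.13 (3.88 to 4.396). In the cluster from 120984106 to 121005173 on chromosome 11 the 8 single ratios lay close, between 4.02 and 5.33, or between 2.65 and 3.51 in units of expected signal.

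In WT, clusters of 7 events started at 54288329 on chromosome 2 (ratio 3.55, 3.27 to 3.86), at 48740358 on chromosome 14 (2.86, 2.63 to 3.12) and at 103291275 on chromosome 7 (4.24, 3.79 to 4.75). Clusters of 6 included the one with the most extreme values among the 10 named. From 57996383 to 58010685 on chromosome 9, WT had 2932 reads and KO 179 after scaling (ratio 16.4, 13.97 to 19.3), and its 6 single ratios ran from 11.8 to 20.4. Another of 6, within 7337 bp from 130348912 on chromosome 4, summed to 5.22 (4.80 to 5.68) while its single ratios ran from 1.59 to 7.72. A high summed ratio was thus shared by every event in the first and not in the second.

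Concentration was also seen over megabases. Events occurred in 1494 windows of 1 Mb: 943 held KO-higher events alone, 273 WT-higher events alone and 278 both. The 123 fullest of 1221 windows with KO-higher events held 35.7% of those events, and the 56 fullest of 551 windows with WT-higher events held 40.6%. The fullest KO windows started at 103000000 on chromosome 13 (66 events), 100000000 on chromosome 6 (48), 50000000 on chromosome 2 (45) and 86000000 on chromosome 12 (43), each with 0 WT-higher events. In WT they started at 45000000 on chromosome 11 (45 events, beside 1 higher in KO), 24000000 on chromosome 2 (38, beside 0) and 102000000 on chromosome 14 (32, beside 1). The longest unbroken series of KO-higher events numbered 141, over 6.29 Mb from 27014667 on chromosome 12. That of WT-higher events numbered 52, over 1.27 Mb from 102128726 on chromosome 14. Of all events on chromosome 12, 95.7% were KO-higher. Whether its KO window and series reflect a difference over the whole chromosome was not tested.

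At the scale of the lists, events close to each other shared direction. Of 4777 pairs of adjacent events at most 10 kb apart, 4098 were both higher in KO and 679 both higher in WT, and 0 were opposite, which allows a share of up to 0.0628% by counting error. Opposite pairs were 3 of 897 at 10 to 20 kb (0.334%), 24 of 1028 at 20 to 50 kb (2.33%) and 46 of 736 at 50 to 100 kb (6.25%). At 100 kb to 1 Mb they were 506 of 1996 (25.4%), and beyond 1 Mb 232 of 625 (37.1%). Pairs within a cluster share a list and can share reads, so they are not independent. The closest opposite pair lay 12875 bp apart on chromosome 12: the KO-higher event at 80873354 had 389 reads against 128 scaled in WT, and the WT-higher event at 80886229 had 366 against 144 scaled in KO. Their ratios were 3.03 and 2.53, and 1.79 and 3.9975 in units of expected signal. The next were 14783 bp apart on chromosome 19 (36879919 and 36894702) and 19705 bp on chromosome 11 (99961776 and 99981481). In units of expected signal, where 112 KO-higher events fall below 1, 129 of the 4777 close pairs (2.70%) were opposite, so the absence of opposite pairs holds for the authors' scaling and not for both.

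**Figure D4:**
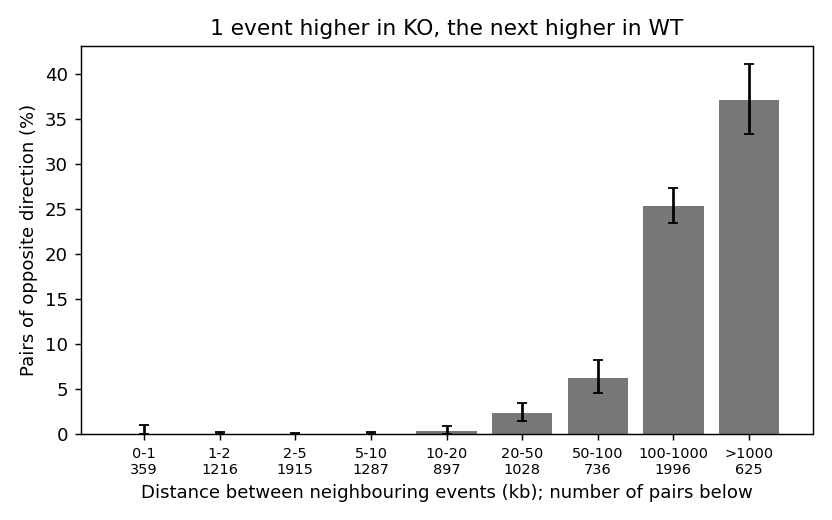
Share of adjacent event pairs in which one event was higher in KO and the other in WT (y axis, %), at the scale of the lists, by the distance between them (x axis, kb, with the number of pairs); bars are shares and whiskers exact 95% intervals. The share is 0 up to 10 kb and reaches 37.1% beyond 1000 kb.

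Events near known genes were then collected at 33 loci: let-7 targets and their regulator Lin28b, Dicer1, genes of contraction and matrix, of bone and cartilage, of early response, of development, and 3 others in 2 loci. No mm9 annotation was used, so each locus is an approximate mm9 window from general knowledge, only roughly placed, widened by 50 kb on both sides, and an event in it may belong to a neighbouring gene. Of the 33 loci, 21 held 116 events, 85 higher in KO (73.3%, against 82.5% of all events), and 12 held none. Where none was listed, no difference passed the authors' threshold, which does not show that acetylation was equal. A ratio of 4 or more was seen at 30 of the 85 KO-higher locus events (35.3%, against 18.6% of the KO list). It was seen at 9 of the 31 WT-higher ones (29.0%, against 47.8% of the WT list). Of the 30 KO-higher events, 14 were at let-7 loci, 13 at Cntn1 or Tmem176a and Tmem176b, and 3 at matrix and contractile loci. The KO share of such events thus rests on few loci, whose neighbouring events can share reads. The loci were chosen with results of these data known. In units of expected signal, 0 of the 116 events fell below 1, so the directions of their point values held on both scales. The lowest value was 1.05, at Cntn1, and no intervals were computed on that scale. The sizes did not hold. In units of expected signal a ratio of 4 or more was seen at 14 of the 85 KO-higher events (16.5%, against 6.52% of the KO list). It was seen at 12 of the 31 WT-higher ones (38.7%, against 59.7%).

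The 3 Igf2bp genes encode RNA-binding proteins of fetal growth that are repressed by let-7. Each locus had 6 events, all higher in KO, and 13 of the 18 had a ratio of 4 or more, or 10 in units of expected signal. At Igf2bp1, between B4galnt2 and Gip on chromosome 11, the event at 95867027 had 635 reads in KO against 45.5 scaled in WT, a ratio of 13.9 (10.5 to 18.6), and that at 95862142 had 547 against 51.1, a ratio of 10.7 (8.21 to 14.3). In units of expected signal these were 9.18 and 7.05. At Igf2bp2 on chromosome 16, the events at 22161660 and 22162761 had 383 and 506 reads against 19.8 and 28.6, ratios of 19.3 (12.9 to 31.3) and 17.7 (12.4 to 25.6). Igf2bp3 on chromosome 6 had 778 reads against 34.4 at 49164356, a ratio of 22.6 (16.7 to 32.3), and 630 against 32.3 at 49157015, a ratio of 19.5 (14.1 to 27.8). About 100 kb from these, 3 events between 49046946 and 49051154 had ratios of 1.90 to 3.13, so the size of the change was not even along the locus. At each of the 3 Igf2bp loci the largest ratios lay at neighbouring events, as the plot of 6 loci shows.

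Nr6a1, an orphan nuclear receptor of early development and also a let-7 target, had 5 events higher in KO with ratios of 2.55 to 4.04. The largest, at 38635347 on chromosome 2, had 663 reads against 164 scaled in WT. Hmga2, a chromatin protein that let-7 represses, and Lin28b, which blocks let-7 maturation, held no listed event. In all, 4 of 6 let-7 loci held events (66.7%, against 63.6% of the 33 loci), 23 higher in KO and 0 in WT, where 82.5% of all events were higher in KO; 18 of the 23 were those of the Igf2bp genes. Dicer1, the deleted gene, had 1 event, at 105939229 on chromosome 12, with 239 reads in KO against 105 scaled in WT, a ratio of 2.29 (1.83 to 2.87), which was 1.35 in units of expected signal. It does not check the deletion, whose place is not given in the labels.

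Matrix and contractile genes went in both directions. Acta2 had 3 events higher in WT between 34328503 and 34330221 on chromosome 19; the first had 689 reads in WT against 240 scaled in KO, a ratio of 2.87 (2.46 to 3.35). Tagln, the actin-binding protein transgelin, had 1 WT-higher event at 45743628 on chromosome 9, with 411 reads against 95.1. Its ratio was 4.32 (3.42 to 5.51), or 3.39 in units of expected signal. Tnc, which encodes the matrix glycoprotein tenascin C, had 5, of which the strongest ratio was 4.98 (3.998 to 6.20), at 63706829 on chromosome 4. KO-higher events were found at Tgm2, a matrix cross-linking transglutaminase, which had 13 with ratios of 1.96 to 5.47. Htra1, a secreted serine protease, had 6 with ratios of 2.06 to 3.61. Thbs1, the adhesive glycoprotein thrombospondin, had 3 with ratios of 2.18 to 2.77. No event was listed at Col1a1, Col1a2, Col3a1, Fn1 or Postn, which encode collagens, fibronectin and periostin of the stromal matrix.

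**Figure D5:**
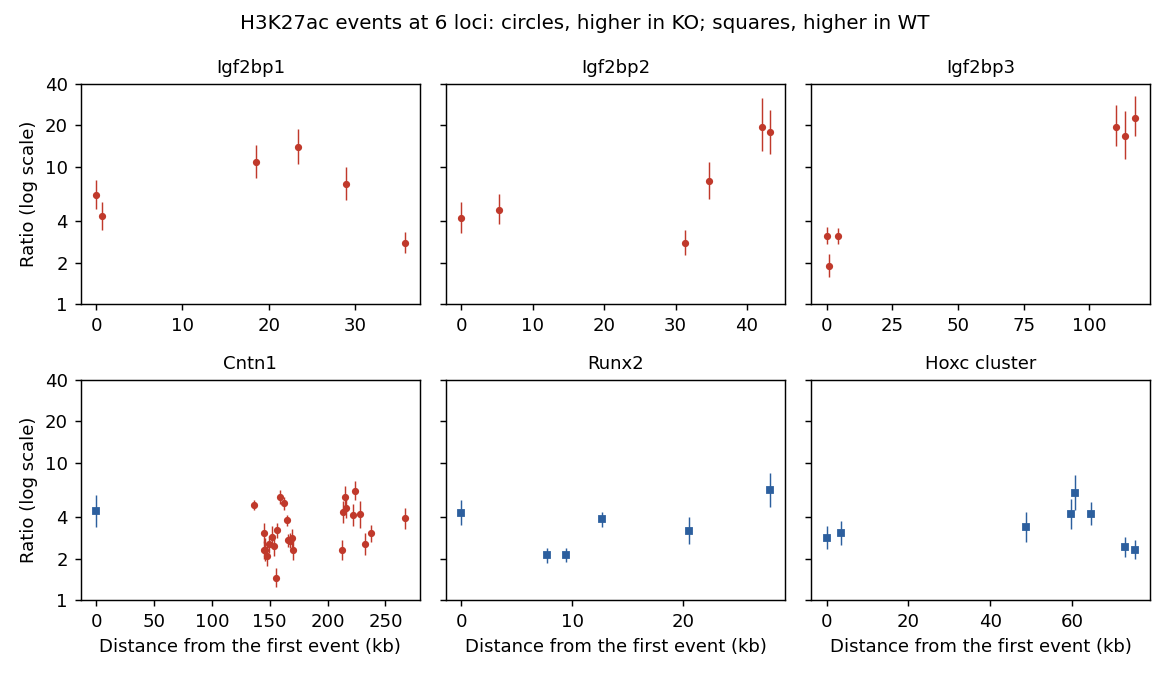
Ratio of the higher to the other genotype (y axis, log scale) for each H3K27ac event at 6 loci, by distance from the first event of the locus (x axis, kb); circles are higher in KO, squares higher in WT, and whiskers are exact 95% counting intervals. The Igf2bp loci reach 13.9, 19.3 and 22.6, and the events at Runx2 and the Hoxc cluster lie between 2.12 and 6.33.

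Among bone and cartilage genes, Runx2, the master transcription factor of osteoblasts, had 6 events higher in WT within 28 kb, from 44629642 to 44657507 on chromosome 17. The event at 44642369 had 1341 reads in WT against 345 scaled in KO, a ratio of 3.88 (3.43 to 4.401), and the last one had the largest ratio, 6.33 (4.75 to 8.46), on 392.1 reads. Alpl, the bone alkaline phosphatase, held no H3K27ac event. Sox9, the cartilage factor, had 1 KO-higher event with a ratio of 2.84 (2.32 to 3.50), or 1.87 in units of expected signal. Of the early response genes, Cyr61 (now Ccn1) had 3 and Ctgf (now Ccn2) 1 KO-higher event, with ratios of 2.11 to 2.68, and Myc none.

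Of 7 loci of developmental transcription factors, 3 held WT-higher events alone, 1 held both kinds and 3 held none (57.1% with events, against 63.6% of the 33 loci). They had 15 WT-higher and 2 KO-higher events, where 82.5% of all events were higher in KO, and 8 of the 15 were in the Hoxc cluster. The Hoxc cluster, a row of homeobox genes that sets body position, had 8 WT-higher events with ratios of 2.33 to 5.99, the largest at 102752903 on chromosome 15 with 349 reads against 58.2. The Hoxa cluster had 2 WT-higher events, at 52204130 (1358 reads against 662, ratio 2.05, 1.86 to 2.26) and 52210090 (3.22, 2.76 to 3.76) on chromosome 6, and 2 KO-higher events in the widened window at 52088448 and 52138544. Emx2 had 2 WT-higher events, the larger at 59534671 on chromosome 19 with 873 reads against 272 (3.21, 2.78 to 3.71), and Meis2, a Hox cofactor, had 3 with ratios of 2.31 to 2.69. No event was listed at the Hoxb and Hoxd clusters or at Foxf1, Foxc2 and Foxl1.

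The locus with the most events was that of Cntn1, a contactin adhesion protein of neurons, which lies between Smgc and Pdzrn4 on chromosome 15. It had 27 KO-higher events and 1 WT-higher event, at 91962267, with 324 reads in WT against 73.3 scaled in KO. The KO-higher events fell into a strong single event at 92098909 (3362 reads against 684 scaled), a dense group of 16, and 10 from 92174419 to 92228881. Among these last 10 the event at 92185861 had 954 reads against 153, the most reads of the 10, against up to 1994 in the dense group. Its ratio of 6.26 (5.32 to 7.36) was the highest of the locus at the scale of the lists. In units of expected signal it was 4.51. There the WT-higher event, with a ratio of 4.42 (3.39 to 5.84) at the scale of the lists, was the highest of the locus, at 5.70. The paired genes Tmem176a and Tmem176b, which encode membrane proteins of immune cells, had 5 KO-higher events between 48779960 and 48792096 on chromosome 6, with ratios of 3.79 to 5.65.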

How the data were processed

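H3K27ac ChIP-seq was done with antibody ab4729 on formaldehyde-fixed, sonicated chromatin of Dicer KO and Dicer WT cells. Per the submitters' processing notes the build was mm9, and TopHat 1.4 is named without a role. Events came from GPS, with replicates pooled, per the deposited file names; its version is not given in the sources used here. The deposited values are estimated counts of the higher genotype, a scaled signal of the other genotype, their ratio or fold, an expected signal per chromosome, −log10 p and q values (listed from a −log10 q of 2, limited at 999), and 2 shape scores, which the authors' files do not define and which were not used. Library totals are unknown.

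The scaling step, searched from 0.6 to 3 by 0.0005, made 88.7% (KO list, WT multiplied by 0.850) and 93.4% (WT list, KO multiplied by 1.09) of control values whole within 0.06; the factors are not reciprocal (product 0.929). Ratio intervals are exact conditional binomial and shares Clopper-Pearson (95%), except the approximate upper limit for opposite pairs at most 10 kb apart. All cover counting error alone, since reads lack molecular identifiers and need not be independent. No test was run, for want of replicates. Clusters joined events within 5 kb. Events were named by q, reads, ratio and cluster size, and genes from a written list; members and lists were chosen with earlier results of these data known. The scripts were tested on simulated data. Software: SciPy 1.17.1, pandas 2.3.3 and NumPy 2.4.6 under Python 3.11.15, with plots by matplotlib 3.10.9.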

Additional observations from a re-analysis of the deposited data

Results flagged for a closer look

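The KO list held 9 events on unplaced contigs, where the WT list held 0; they are outside the comparisons above because their chromosome position is unknown.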

How the results depend on the processing

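The KO share, 82.5% as reported, was 84.5% at a −log10 q of at least 10, 80.5% with events merged within 5 kb and 73.0% for events at least 2-fold apart in units of expected signal. Chosen after seeing the data, it was 88.7% with a common read minimum and 81.6% for events at least 2-fold apart at the scale of the lists. At a −log10 q of at least 5 the median KO gap was 12011 bp, the clustered KO share 56.9%, and the median reads 398 in KO and 324 in WT. With as many KO events as the WT list holds (chosen after seeing the data) the KO gap was 52232 bp and the clustered share 44.3%. Joined within 2 kb, 30.03% of KO-higher and 20.2% of WT-higher events were clustered, and at the wider distance usual for stitching enhancers 75.4% and 61.8%. The median ratio was 2.10 in KO and 4.69 in WT in units of expected signal, and 2.66 and 3.58 with the reciprocal factor of the other list (chosen after seeing the data). The share with a ratio of 4 or more, in units of expected signal, was 6.52% in KO and 59.7% in WT (also chosen after seeing the data). Regions with both directions numbered 0 within 2 kb, 5 kb and that wider distance, 3 within 20 kb, 25 within 50 kb, and 84 within 5 kb with direction in units of expected signal (the last 3 chosen after seeing the data). In all, 16 of 40 alternative values lay within the interval of the main value, or equalled its count, and 24 did not. Some of the 16 could not have differed. A minimum of 100 reads removed no event, since the fewest reads were 107 in KO and 110 in WT. Regions with both directions could not appear within 2 kb once there were 0 within 5 kb. The 16 are therefore not a measure of stability. Fewer events enter the stricter rules by construction; other causes were not tested. No paired analysis was possible because each genotype's replicates were pooled before deposit, which also prevents leaving a replicate out. Total depth is unknown.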
